A study of Mus musculus with 6 samples.

Results

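The genes described here are the metalloproteinases of the MMP, ADAM and ADAMTS families and their protein inhibitors, the TIMPs, taken by gene symbol from RNA sequencing of mammary spheres. The symbols matched 73 of the 19893 genes with a row in all 6 libraries: 23 MMPs, 4 TIMPs, 27 ADAMs and 19 ADAMTSs. Each gene was represented by its transcript with the highest mean count.

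The primary tumour (PT) group has 3 libraries of spheres grown from tumours of MMTV-Neu mice older than 20 weeks, and the early lesion (EL) group has 3 libraries of spheres grown from glands of MMTV-Neu mice aged 14 to 18 weeks in which no tumour could be felt. All mice were of the FvB strain and carried the transgene, in which the promoter of mouse mammary tumour virus drives the Neu (ErbB2) oncogene in the mammary epithelium. Digested tissue was cultured for 7 days in mammosphere medium on plates to which cells do not attach, and the labels give no sort of the cells. The labels do not tell whether replicates are different mice; p-values therefore measure the spread between libraries, which may be technical.

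Matrix metalloproteinases (MMPs) are zinc-dependent enzymes that cut collagens, proteoglycans and other extracellular proteins, most of them secreted as inactive precursors and some anchored in the plasma membrane. TIMPs bind their active site and block it. ADAMs are membrane proteins that release the outer part of growth factors, cytokines and adhesion proteins from the cell surface, and ADAMTSs are secreted relatives that cut proteoglycans and trim procollagens. In the mammary gland these enzymes take part in branching and in involution, and in tumours many of them are made by stromal cells beside the epithelium.

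Most metalloproteinase transcripts that could be tested were lower in PT than in EL spheres, several of them by more than an order of magnitude, and a small set was higher. Mmp3, Mmp13 and Mmp2 were among the 40 most abundant transcripts in EL and averaged at most 41.6 CPM (counts scaled to the size of the library) in PT. Mmp15, Mmp16, Adamts8, Adamts5 and Adam8 rose. Mmp12 and Adam17 stood at close levels in both groups and did not pass the test.

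Libraries held 69759793 to 85126630 counts over all transcripts, the lowest from a table of EL replicate 1 that breaks off early but has a row for each of the 73 genes. Correlations of log2 CPM across genes were at least 0.995 within a group and at most 0.847 between groups. Epithelial markers of the luminal list were present in both groups and higher in PT, at a summed 7727 to 7954 CPM in PT and 2128 to 2186 CPM in EL. Basal epithelial markers summed to 603 to 635 CPM in PT and 482 to 529.7 CPM in EL and divided, with 4 of 7 called lower (Krt5, log2 fold change -8.49; Myh11, -5.17; Acta2, -2.70; Trp63, -2.34) and 3 higher (Oxtr, 3.52; Krt17, 2.79; Krt14, 0.26). Fibroblast markers were far lower in PT, with 734 to 874 CPM in PT against 71981 to 76773 CPM in EL (all 12 called lower, median log2 fold change -6.38). Endothelial markers summed to 6.14 to 6.77 CPM in PT and 259 to 278 CPM in EL, and pericyte markers to 138 to 147 CPM in PT and 1426 to 1643 CPM in EL. Adipocyte markers were scarce, at 3.02 to 3.50 CPM in PT and 25.1 to 29.2 CPM in EL. Macrophage markers were higher in PT, at 641 to 659 CPM against 305 to 319 CPM in EL. A tissue label of the EL samples names lung beside mammary. The 8 lung markers summed to 71.6 to 77.5 CPM in PT and 8.70 to 10.1 CPM in EL. Of these, Sftpa1, Scgb1a1, Nkx2-1 and Cldn18 had 0 counts in all 6 libraries, and Sftpb, Sftpc and Ager had counts in both groups. Only 2 were tested, with 1 called higher and 1 not called. Sftpd, a surfactant protein, was at 72.1 ± 3.27 CPM in PT and 8.07 ± 0.849 CPM in EL. In bulk RNA of this kind, fewer cells of a type and less RNA per cell cannot be told apart.

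Of the 73 genes, 52 had enough counts for the test and 21 did not, among them 9 with 0 counts in every library. The edgeR quasi-likelihood test, with Benjamini-Hochberg adjustment over all genes tested and a threshold of 0.05, called 42 of the 52 lower and 5 higher in PT. Over all 13844 genes tested it called 40.8% lower and 39.9% higher. The median log2 fold change (PT minus EL) was -3.11 for the 52 genes and 0.00 for all genes tested. Falls of more than 16-fold were called for 20 of the 52, where 6.98% of all genes tested fell as far, and rises of more than 2-fold for 3, against 9.43% of all genes. A gene made in EL alone passes the count filter on its EL counts and can then only be lower in PT, so these counts describe the genes that passed and are no test of the families. PT and EL libraries did not overlap for 46 of the 52, against 82.7% of all genes tested. A test against a 2-fold minimum called 3 higher and 33 lower, against 7.3% and 17.3% of all genes. Scaling to library totals alone, without TMM factors, moved the median of all genes up by 0.25 on the log2 scale and the share of calls that were higher to 65.8% in place of 49.5%. Of the 52, 38 were then lower and 7 higher.

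**Figure D1:**
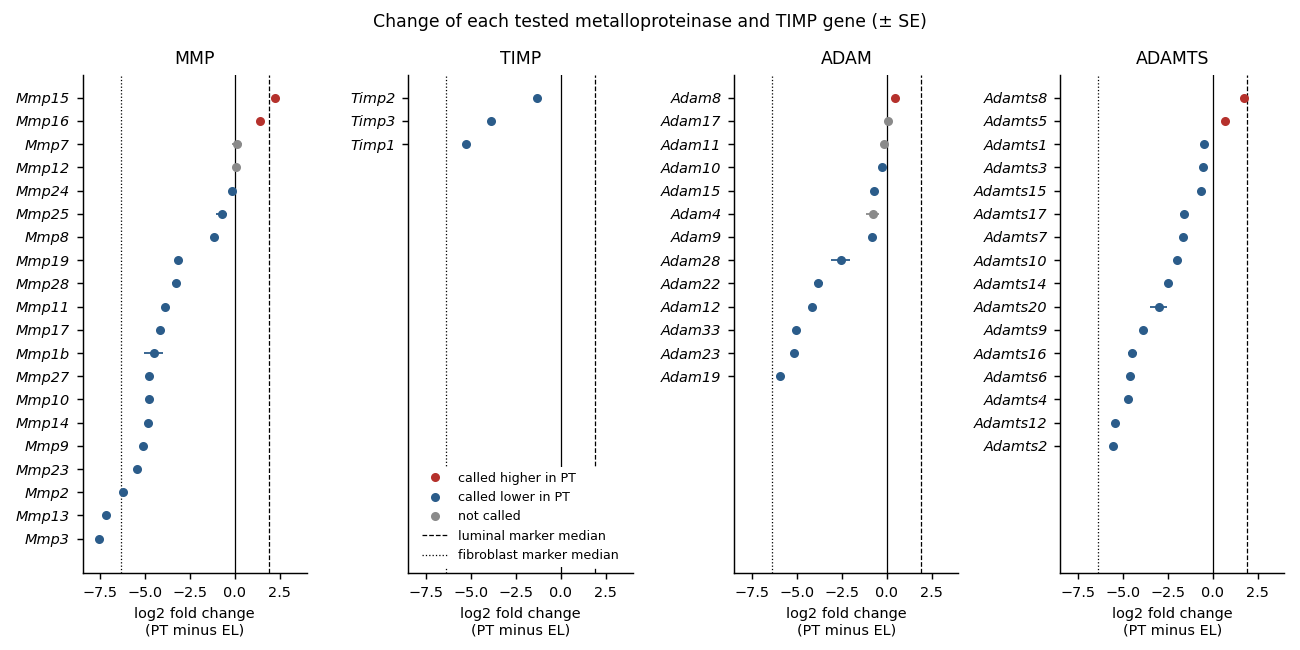
Log2 fold change of PT over EL for each of the 52 tested genes, by family, with its standard error. Lines mark 0 and the medians of the luminal epithelial (1.93) and fibroblast markers (-6.38); Mmp3 and Mmp13 lie past the fibroblast median, and Mmp15, Mmp16, Adamts8, Adamts5 and Adam8 lie above 0 and were called.

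Of the 52 genes, the stromelysin Mmp3 and the collagenase Mmp13 had the largest falls. Mmp3, stromelysin-1, which cuts proteoglycans, basement membrane proteins and other MMP precursors, had 8.56, 10.7 and 10.5 CPM in the PT libraries, against 1781, 1818 and 2193 CPM in the EL libraries. The groups did not overlap, and the lowest EL library was far above the highest PT library (194-fold lower mean in PT; log2 fold change -7.60, SE 0.10; edgeR adjusted p = 1.59e-15). Of 13844 genes tested, 70 had a lower log2 fold change than Mmp3. Its relative Mmp10, stromelysin-2, was at 0.624, 0.524 and 0.557 CPM in PT and 15.9, 14.1 and 17.9 CPM in EL, again without overlap (log2 fold change -4.81, SE 0.14). Mmp13, collagenase-3, the main interstitial collagenase of rodents, had 15.3, 17.8 and 15.6 CPM in PT and 2681, 1956 and 2368 CPM in EL. EL replicate 2 was the lowest of its group and still over 100 times every PT library (144-fold lower mean in PT; log2 fold change -7.17, SE 0.12; edgeR adjusted p = 8.00e-15). Mmp8, the collagenase first known from neutrophils, fell less, to 9.43 ± 1.51 CPM in PT against 21.0 ± 4.04 CPM in EL (n = 3 each; log2 fold change -1.15, SE 0.13). Of 7 measured neutrophil markers 2 were tested and they went opposite ways: S100a8 was at 6.20 CPM in PT and 17.1 CPM in EL (called lower), and Csf3r had 12, 13 and 15 counts in PT and 0, 5 and 0 counts in EL (called higher). S100a9 and Cxcr2 had at most 6 counts in any library, Mpo had 0 counts in PT, and Retnlg was at 0 in all libraries; the part of neutrophils in the Mmp8 level was not tested. Mmp1b, a rodent relative of interstitial collagenase, had 2, 0 and 2 counts in PT and 24, 19 and 34 counts in EL (log2 fold change -4.54, SE 0.55), and Mmp1a had 0 counts in PT and 2 in EL and was not tested.

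Both gelatinases, which degrade denatured collagen and collagen IV, fell. Mmp2 was the most abundant of the 73 genes in EL by CPM, the 17th of 19893 genes, and had 38.0, 41.5 and 45.5 CPM in PT against 3305, 2942 and 3276 CPM in EL. The libraries of each group lay close together and far from the other group (76.2-fold lower mean in PT; log2 fold change -6.25, SE 0.07; edgeR adjusted p = 4.38e-16). Mmp9 had 2.85, 2.34 and 4.35 CPM in PT and 114, 112 and 113 CPM in EL (log2 fold change -5.14, SE 0.11), and PT replicate 3 stood above the other PT libraries. It was the 1 gene with a mean count of at least 500 whose highest library of a group was over 1.5 times the lowest.

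The membrane-anchored MMPs divided, and this class held the MMPs that rose. Mmp14 (MT1-MMP), a collagenase of the cell surface that activates the Mmp2 precursor together with Timp2, had 48.9, 53.8 and 53.9 CPM in PT against 1539.9, 1419 and 1511 CPM in EL, with no overlap (28.5-fold lower mean in PT). Mmp17, held by a lipid anchor, and Mmp23, an MMP without the usual hemopexin domain, fell as well, with log2 fold changes of -4.20 (SE 0.14) and -5.44 (SE 0.11). For Mmp23 the libraries had 0.410, 0.431 and 0.359 CPM in PT and 17.1, 18.1 and 17.3 CPM in EL. Mmp15 (MT2-MMP), a transmembrane relative of Mmp14 expressed by many epithelia, went the other way: it had 281, 313 and 296 CPM in PT and 65.6, 64.6 and 59.4 CPM in EL. Every PT library was above every EL library (4.70-fold higher mean in PT; log2 fold change 2.23, SE 0.05; edgeR adjusted p = 1.08e-13). Mmp16 (MT3-MMP) had 6.81, 6.65 and 6.86 CPM in PT and 2.80, 2.69 and 2.27 CPM in EL, also without overlap (log2 fold change 1.39, SE 0.11; edgeR adjusted p = 5.96e-08). The rises of Mmp15 and Mmp16 stood beside that of the luminal epithelial markers (8 of 8 called higher, median log2 fold change 1.93), whose part in them was not tested. Mmp24 (MT5-MMP) was at 13.4 ± 0.532 CPM in PT and 15.2 ± 0.648 CPM in EL, a small fall (log2 fold change -0.18, SE 0.06; edgeR adjusted p = 0.0146) whose sign turned with library totals (0.06). The call was also lost without EL replicate 3 (adjusted p = 0.0507 by edgeR), without PT replicate 3 (0.0757) and with upper-quartile factors (0.077). Its exons share 14.8% of their bases with BC029722. Mmp25 had under 30 counts in each library and values that overlapped (0.352 ± 0.122 CPM in PT and 0.589 ± 0.130 CPM in EL; edgeR adjusted p = 0.0453). That call was lost in 10 of 15 other settings, with adjusted p up to 0.184 among those without a fold minimum.

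Among the other secreted MMPs, Mmp11 (stromelysin-3), which is cut to its active form by furin inside the cell and is known from fibroblasts around carcinomas, was at 18.8 ± 0.892 CPM in PT and 283 ± 26.8 CPM in EL (log2 fold change -3.91, SE 0.07). Mmp19 was at 19.1 ± 1.56 CPM in PT and 175 ± 12.1 CPM in EL (log2 fold change -3.20, SE 0.06), but 22.8% of its exon bases lie over exons of Tmem198b on the other strand, and with no strand setting given the reads of both genes cannot be told apart there. Mmp28 (12.3% of exon bases shared with another gene) and Mmp27 fell with log2 fold changes of -3.30 (SE 0.19) and -4.78 (SE 0.19). Mmp12, the elastase of macrophages, had 220.0, 269.8 and 242 CPM in PT and 183, 249 and 258 CPM in EL. The groups overlapped, with EL replicate 1 the lowest of all (log2 fold change 0.09, SE 0.10; edgeR adjusted p = 0.462), and without that library the value was -0.05. With library totals Mmp12 passed the test at 0.33. The macrophage list had 7 of 8 tested members called higher (C1qa at 49.0 ± 4.26 CPM in PT and 8.62 ± 1.27 CPM in EL), except Csf1r, the macrophage growth factor receptor, at 18.1 ± 1.95 CPM in PT and 16.2 ± 1.90 CPM in EL (edgeR adjusted p = 0.115). The part of macrophages in the Mmp12 level was not tested. Mmp7 (matrilysin), an epithelial MMP, was low at 0.652 ± 0.159 CPM in PT and 0.598 ± 0.115 CPM in EL, and was not called (edgeR adjusted p = 0.660). Mmp20, the enamel protease, had 0 counts throughout, and Mmp21 had 5 counts in PT and 1 in EL.

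**Figure D2:**
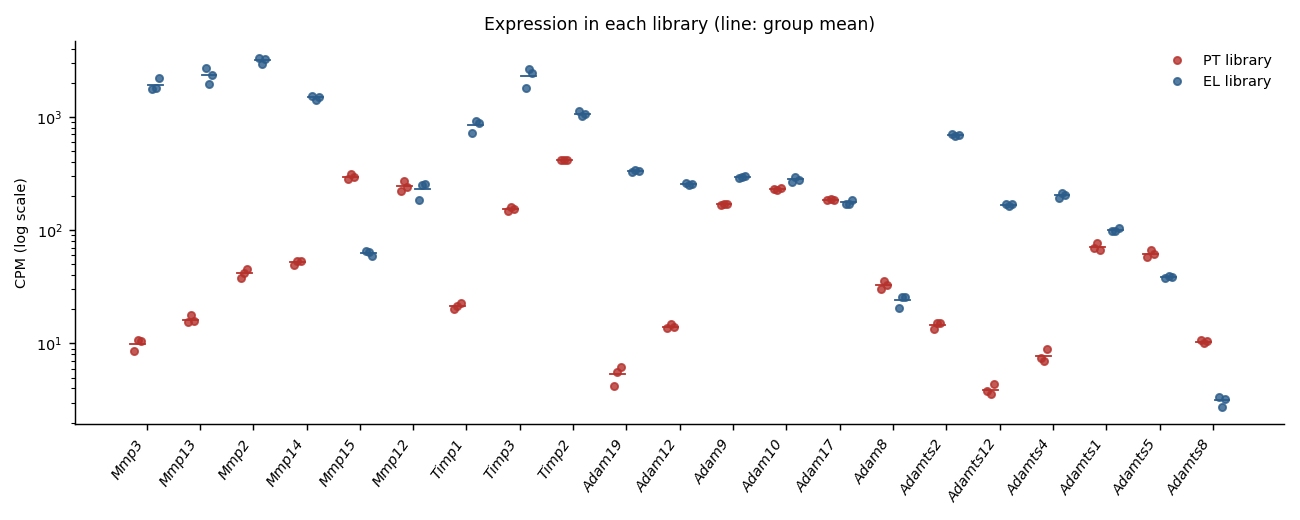
CPM of 21 genes in each library on a log axis, PT to the left of EL for each gene, with a line at the group mean. Libraries of a group lie close together. Mmp3 has 8.56 to 10.7 CPM in PT and 1781 to 2193 CPM in EL. Mmp15 has 281 to 313 CPM in PT and 59.4 to 65.6 CPM in EL. The Mmp12 groups overlap, and so do the Adam17 groups.

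A run of 10 Mmp genes lies on chromosome 9 between 7272514 and 7699585 (build mm10/GRCm38), a span of 427 kb, in the order Mmp13, Mmp12, Mmp1b, Mmp3, Mmp1a, Mmp10, Mmp8, Mmp27, Mmp20 and Mmp7. Log2 fold changes of its tested members ran from -7.60 (Mmp3) to 0.13 (Mmp7). Of the 8 tested, 6 were lower in PT and 2 were not called, where 40.8% of all genes tested were lower and 80.7% were called. Mmp12 lies between Mmp13 and Mmp3, the genes that fell most, and on the other strand from Mmp1b, with which it shares 157 exon bases.

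**Figure D3:**
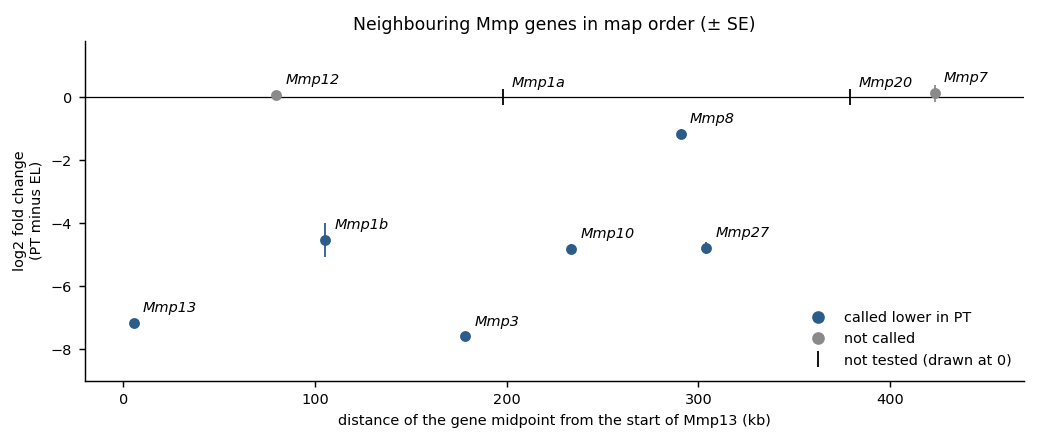
Log2 fold change of PT over EL, with its standard error, for the neighbouring Mmp genes of chromosome 9, placed by the distance of their midpoint from the start of Mmp13 in kilobases. Mmp13 (-7.17) and Mmp3 (-7.60) lie lowest, and Mmp12 (0.09), drawn between them, lies near 0; Mmp1a and Mmp20 were not tested.

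Most promoters of this run share a short sequence, in genes that fell and in genes that were not called. MMP promoters are known for sites of AP-1, the dimer of Fos and Jun proteins, so the letters TGANTCA, which read the same on both strands, were searched in the RefSeq promoter table of GRCm38.p6 (250 bases before to 50 after each start; some genes have several starts). It holds promoters of 44 of the 73 genes, including all 10 of the run, and 8 of the 10 contain the letters, against 4 of the other 34 and 8.97% of all 27025 genes in the table. The 8 are Mmp13, Mmp3, Mmp10 and Mmp1b, which fell, Mmp12 and Mmp7, which were not called, and Mmp1a and Mmp20, which were not tested. The search allowed any base in the middle. The match in Mmp20 reads TGAATCA, as do those in Adam20 and Adam25 outside the run. The other matches read TGACTCA or TGAGTCA. Mmp8 and Mmp27, which fell, lack them in this window. The promoters of 8 ADAMTS genes that fell and of Mmp15 and Adam8, which rose, hold none in this window. Below are the 150 bases before the start for 3 of the genes that fell and for Mmp12 (its second listed start), all on the plus strand, 5′ to 3′, with the AP-1 letters in capitals, shown because Mmp12, which was not called, carries the letters as its neighbours do.
Mmp13, chr9:7272364-7272513: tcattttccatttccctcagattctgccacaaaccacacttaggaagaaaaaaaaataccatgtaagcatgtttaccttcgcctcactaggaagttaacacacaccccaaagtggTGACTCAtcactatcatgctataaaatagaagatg
Mmp3, chr9:7445672-7445821: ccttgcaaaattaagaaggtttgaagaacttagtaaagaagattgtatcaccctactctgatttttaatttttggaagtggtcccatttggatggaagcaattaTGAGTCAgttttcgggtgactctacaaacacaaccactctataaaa
Mmp10, chr9:7502192-7502341: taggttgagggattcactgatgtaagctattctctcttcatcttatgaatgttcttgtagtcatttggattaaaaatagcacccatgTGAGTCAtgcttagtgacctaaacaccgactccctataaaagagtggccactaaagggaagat
Mmp12, chr9:7347224-7347373: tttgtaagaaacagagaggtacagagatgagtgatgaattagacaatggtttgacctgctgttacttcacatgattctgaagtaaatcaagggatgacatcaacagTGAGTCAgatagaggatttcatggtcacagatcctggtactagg
The capitals begin 35, 46, 63 and 44 bases before the start in Mmp13, Mmp3, Mmp10 and Mmp12. The first 3 promoters also hold the TATA letters TATAAA between the capitals and the start. In the Mmp12 window these letters lie just past the listed start, outside the stretch shown. Over all genes in the table, 15.7% hold TATAAA on either strand, 38.4% the ETS letters AGGAAG or their complement and 18.9% the RUNX letters TGTGGT or their complement; among the 12 MMP genes with a promoter that fell, the counts were 5, 6 and 5, and 4 held the AP-1 letters. These matches are letters in a window and not shown to be bound, and their part in the changes was not tested.

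Genes of the AP-1, ETS and RUNX factors went in both directions: of 14 genes, 7 were higher and 6 lower in PT (8 higher and 4 lower with library totals; median log2 fold change 0.11). Among all genes tested, 39.9% were called higher and 40.8% lower. Fosl1, a Fos relative, was at 7.02 ± 0.196 CPM in PT and 23.6 ± 1.33 CPM in EL (log2 fold change -1.75, SE 0.06). Runx2, a RUNX factor known to drive Mmp13 in bone, was at 26.4 ± 0.620 CPM in PT and 77.3 ± 1.71 CPM in EL (log2 fold change -1.55, SE 0.04). The ETS genes Etv1 (log2 fold change 2.38, SE 0.06) and Ets2 (0.85, SE 0.03) rose. Jun, named after its value was seen, did not pass (139 ± 4.72 CPM in PT and 137 ± 9.31 CPM in EL; edgeR adjusted p = 0.646).

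The 3 tested inhibitors fell, by amounts that differed widely from one to the next. Timp1, an inhibitor induced by growth factors and cytokines, had 20.1, 21.4 and 22.9 CPM in PT against 728, 913 and 885 CPM in EL. No library overlapped (39.2-fold lower mean in PT; log2 fold change -5.29, SE 0.09; edgeR adjusted p = 7.70e-15). Timp3, which binds to the matrix and also inhibits Adam17 and ADAMTS enzymes, had 147, 160.3 and 154 CPM in PT and 1787, 2660.4 and 2455 CPM in EL. EL replicate 1 was below the other EL libraries and above all PT libraries (15.0-fold lower mean in PT; log2 fold change -3.90, SE 0.12; edgeR adjusted p = 3.73e-12). Timp2, which inhibits MMPs and also links the Mmp2 precursor to Mmp14, fell least, to 419, 415 and 420.0 CPM in PT against 1122, 1018 and 1062 CPM in EL (2.55-fold lower mean; log2 fold change -1.35, SE 0.04; edgeR adjusted p = 1.30e-12). Timp4 had 1, 4 and 1 counts in PT and 1, 1 and 0 counts in EL and was not tested (ratio of EL to PT 0.443, exact 95% interval 0.0438 to 2.48, counting error only).

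Per kilobase of transcript, the scale on which genes can be set beside each other, the order of the genes changed between the groups. In PT the highest levels were those of Timp2 (113 ± 0.785 CPM per kilobase), Mmp12 (67.6 ± 6.93), Mmp15 (57.8 ± 3.16), Adam10 (50.6 ± 0.776), Adam9 (41.9 ± 0.609) and Adam17 (41.6 ± 0.636). Within that order Mmp12 and Mmp15, and Adam9 and Adam17, lay within their SDs of each other. In EL the highest were Mmp3 (1072 ± 126 CPM per kilobase), Mmp2 (1031 ± 65.6), Timp1 (953 ± 113) and Mmp13 (873 ± 136), each within the SDs of the next, followed by Mmp14 (574 ± 24.2) and Timp3 (487 ± 96.7), which lay within their SDs too. Summed over the 22 MMPs with a length (Mmp27 has none in the annotation used), the level was 196 ± 13.9 CPM per kilobase in PT and 3878 ± 281 in EL, 19.8-fold lower in PT. The TIMP sum was 169.5 ± 2.48 in PT and 1728 ± 196 in EL, 10.2-fold lower. The ratio of the MMP sum to the TIMP sum was 1.09, 1.23 and 1.14 in the PT libraries and 2.65, 1.90 and 2.26 in the EL libraries. It was lower in every PT library than in every EL library, and being a sum over chosen genes it was not tested.

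The make-up of the MMP level differed as well. Collagenases, stromelysins and gelatinases each made up 2.82% to 8.21% of the summed MMP level per kilobase in PT libraries and 20.8% to 30.0% in EL libraries. Membrane-anchored MMPs made up 41.5% to 43.4% in PT and 15.0% to 16.3% in EL, with Mmp15 alone at 29.2% to 30.2% in PT and 0.283% to 0.354% in EL. Mmp12 made up 33.7% to 35.8% in PT and 1.27% to 1.94% in EL, while its own level did not pass the test.

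**Figure D4:**
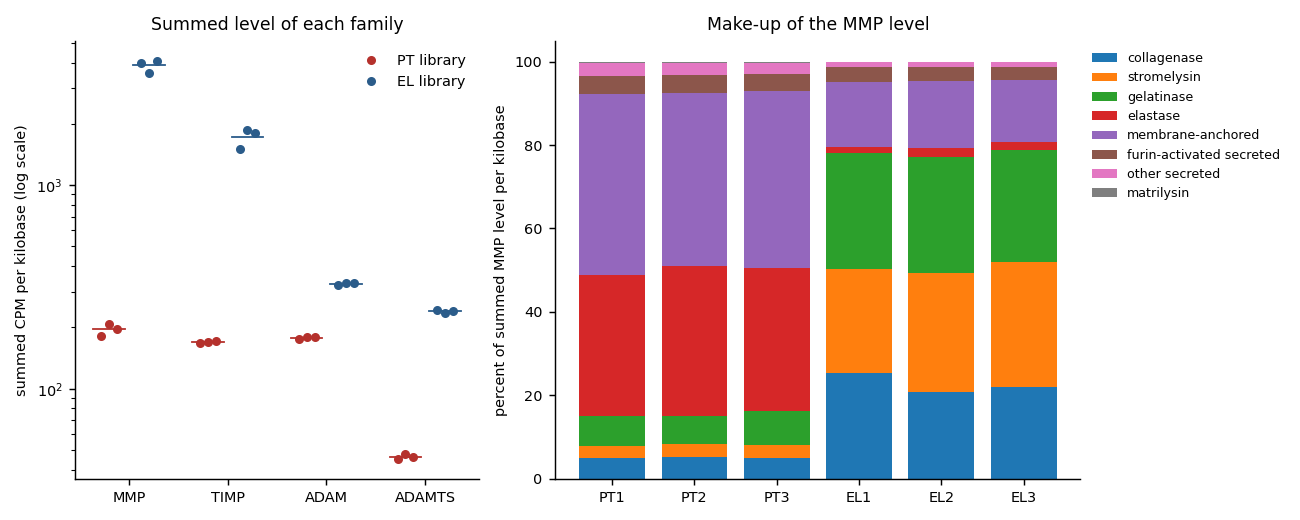
Left, the summed level of each family in CPM per kilobase on a log axis, one point a library, PT to the left of EL, with a line at the group mean; the MMP sum is 181 to 209 in PT and 3558 to 4087 in EL, and the ADAM sum 176 to 179.7 in PT and 323 to 329 in EL. Right, the percentage of the summed MMP level held by each class in each library, where collagenase, stromelysin and gelatinase fill most of the EL bars and the elastase Mmp12 and the membrane-anchored class most of the PT bars.

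Adam10, Adam17, Adam9 and Adam15, abundant in both groups, had log2 fold changes of -0.80 to 0.08, and other ADAMs fell by far more. Adam8 rose, and the scarce Adam11 and Adam4 were not called. Of the 27 ADAMs, 13 were tested, with 9 lower and 1 higher (76.9% called, against 80.7% of all genes tested). By CPM, Adam10, Adam17 and Adam9, sheddases found in most cell types, were the most abundant ADAMs in PT, whereas in EL Adam19 (333 ± 5.20 CPM) had the highest mean. Adam10, which releases Notch, cadherins and the ligand Btc, had 233, 229 and 236 CPM in PT and 269, 293 and 280.1 CPM in EL. The groups did not overlap, but the fall was small (log2 fold change -0.27, SE 0.04; edgeR adjusted p = 1.01e-05) and was lost with library totals (-0.03). Adam17, which releases TNF and the EGF receptor ligands Tgfa, Areg and Hbegf, had 183, 189 and 186 CPM in PT and 172, 172 and 186 CPM in EL (log2 fold change 0.08, SE 0.04; edgeR adjusted p = 0.0619). One EL library reached the PT values, and the gene passed with library totals at 0.32 and in 5 other settings; 6.9% of its exon bases are shared with Iah1 on the other strand. Adam9 had 167, 169 and 172 CPM in PT and 292, 296 and 299.7 CPM in EL, a clear separation (log2 fold change -0.80, SE 0.03; edgeR adjusted p = 2.18e-11). Adam15 followed it (log2 fold change -0.72, SE 0.03), with 24.7% of its exon bases under an antisense gene.

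Other ADAMs fell by far more. Adam19 (meltrin beta) had 4.21, 5.58 and 6.20 CPM in PT and 328, 338 and 334 CPM in EL, and the groups were far apart (62.5-fold lower mean in PT; log2 fold change -5.96, SE 0.08; edgeR adjusted p = 1.18e-15). Its exons share 9.2% of their bases with the antisense gene Gm16033 and 7.52% with the antisense gene Gm16034. Adam12 (meltrin alpha) had 13.6, 14.8 and 13.9 CPM in PT and 259.6, 250.4 and 254 CPM in EL, with each group tight (log2 fold change -4.17, SE 0.04; edgeR adjusted p = 1.39e-16). Adam33, known from airway fibroblasts and smooth muscle, had 0.488, 0.487 and 0.557 CPM in PT and 19.9, 16.2 and 16.2 CPM in EL (log2 fold change -5.08, SE 0.14). Adam23, which lacks the zinc-binding residues and acts in adhesion, had 0.449, 0.655 and 0.665 CPM in PT and 22.0, 20.6 and 22.7 CPM in EL (log2 fold change -5.19, SE 0.11). None of these overlapped between groups. Adam22, another member without protease activity, fell by 3.82 on the log2 scale (SE 0.24). Its other transcripts, at 40.6% of the highest, had a log2 ratio of -5.02, and counts summed over transcripts gave -4.24. In contrast, the third tested member without protease activity, Adam11, was at 1.76 ± 0.133 CPM in PT and 1.96 ± 0.411 CPM in EL (edgeR adjusted p = 0.426). Adam28 had 7, 1 and 3 counts in PT and 14, 14 and 23 in EL (log2 fold change -2.58, and -3.43 without PT replicate 1). Adam8, a sheddase of leukocytes and tumour cells, was the ADAM that rose, with 30.1, 35.6 and 32.6 CPM in PT and 20.5, 25.8 and 25.9 CPM in EL. Its groups did not overlap, although the gap was narrow (log2 fold change 0.44, SE 0.08; edgeR adjusted p = 2.92e-04). Macrophage and luminal markers rose beside it, and their part was not tested. The 14 ADAMs that were not tested had at most 36 counts over the 6 libraries, and 8 of them, including the sperm proteins Adam2, Adam3 and Adam18, had 0.

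Every tested ADAMTS gene was called, 14 lower and 2 higher in PT, where 80.7% of all genes tested were called. The procollagen processing enzyme Adamts2, which removes the N-terminal propeptide of fibrillar collagens, had 13.5, 15.2 and 15.2 CPM in PT against 711, 673 and 695 CPM in EL. The groups lay far apart (47.4-fold lower mean in PT; log2 fold change -5.57, SE 0.05; edgeR adjusted p = 1.09e-16). Its relatives Adamts14 and Adamts3 fell less, with log2 fold changes of -2.47 (SE 0.13) and -0.55 (SE 0.15); the fall of Adamts3 did not pass with library totals (-0.30). Adamts12, which can cut the cartilage protein COMP, had 3.78, 3.60 and 4.35 CPM in PT and 171, 164 and 170.1 CPM in EL (43.1-fold lower mean; log2 fold change -5.42, SE 0.05), and its close relative Adamts7 was at 26.3 ± 0.640 CPM in PT and 84.4 ± 6.54 CPM in EL (log2 fold change -1.68, SE 0.05). Adamts6 and Adamts10, a pair of related enzymes tied to fibrillin microfibrils, fell by unequal amounts. Adamts6 had 1.03, 1.09 and 1.13 CPM in PT and 24.1, 27.4 and 28.0 CPM in EL (log2 fold change -4.61, SE 0.10), and Adamts10 was at 9.26 ± 0.214 CPM in PT and 37.3 ± 3.67 CPM in EL (log2 fold change -2.01, SE 0.07).

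The enzymes that cut versican and aggrecan, the large proteoglycans that bind hyaluronan, spanned the whole range from a strong fall to a rise. Adamts4 (aggrecanase-1) had 7.41, 7.02 and 8.89 CPM in PT and 191, 214 and 205 CPM in EL (26.2-fold lower mean in PT; log2 fold change -4.71, SE 0.07; edgeR adjusted p = 3.37e-15). Adamts9 fell by 3.88 on the log2 scale (SE 0.09) and the scarce Adamts20 by 3.02 (SE 0.46). Adamts1 and Adamts15 changed little by comparison: Adamts1 had 69.2, 76.5 and 67.5 CPM in PT and 98.9, 98.5 and 104 CPM in EL (log2 fold change -0.50, SE 0.05), and Adamts15 had 56.5, 61.5 and 60.0 CPM in PT and 105, 79.1 and 94.4 CPM in EL (log2 fold change -0.65, SE 0.08). Neither overlapped between groups, and both also passed with library totals. Adamts5 (aggrecanase-2), the main aggrecanase of mouse cartilage, rose: it had 58.0, 66.4 and 62.0 CPM in PT and 37.9, 39.5 and 38.6 CPM in EL. Each PT library was above each EL library (1.61-fold higher mean; log2 fold change 0.68, SE 0.05; edgeR adjusted p = 2.79e-08). Adamts8, an enzyme described as an inhibitor of blood vessel growth, had 10.7, 10.1 and 10.4 CPM in PT and 3.39, 2.77 and 3.26 CPM in EL, with a wide gap (3.31-fold higher mean; log2 fold change 1.72, SE 0.09; edgeR adjusted p = 1.59e-09). An antisense gene lies over 13.5% of its exon bases. Of the least abundant, Adamts16 fell by 4.48 (SE 0.26) and Adamts17 by 1.58 (SE 0.23), both log2, and Adamts13, Adamts18 and Adamts19 were not tested, with 18, 2 and 0 counts in PT and 5, 8 and 1 in EL.

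As a class, the proteoglycan-cutting enzymes made up most of what ADAMTS transcript was left. They held 75.0% to 76.9% of the summed ADAMTS level per kilobase in PT libraries and 36.6% to 38.4% in EL libraries, while the procollagen processing class held 5.98% to 6.82% in PT and 40.4% to 41.3% in EL. The ADAMTS sum itself was 46.4 ± 1.32 CPM per kilobase in PT and 239.9 ± 4.37 in EL, and the ADAM sum 178 ± 2.25 in PT and 327 ± 3.70 in EL. The summed per-length level was thus 1.83-fold lower in PT for ADAMs, 5.17-fold for ADAMTSs, 10.2-fold for TIMPs and 19.8-fold for MMPs. All of these differences stood beside the fibroblast, endothelial and pericyte markers given above, which were lower in PT, and the basal epithelial markers, which were divided. The part of these markers in the differences was not tested. Mmp3 and Mmp13 were the 2 genes of the 52 with a lower log2 fold change than the fibroblast marker median.

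Genes that activate, restrain or serve these enzymes were read from lists drawn up with earlier results known. The count of each list is to be set beside all genes tested, of which 40.8% were called lower and 39.9% higher. Of 26 tested activators and inhibitors, 19 were lower and 6 higher in PT (16 and 8 with library totals; median log2 fold change -1.15). The tissue plasminogen activator Plat was at 6.48 ± 0.518 CPM in PT and 345 ± 14.6 CPM in EL. Plau (urokinase) was at 30.8 ± 1.35 CPM in PT and 269 ± 28.7 CPM in EL (log2 fold change -3.12, SE 0.07). Both activate plasminogen, whose active form activates MMP precursors. The proprotein convertase Pcsk5 (log2 fold change -6.24, SE 0.06) and the scavenger receptor Lrp1 (-5.27, SE 0.06), which takes up MMPs and ADAMTSs, fell as well. Chosen after their values were seen, Furin, the convertase of many of these precursors, was at 363 ± 6.71 CPM in PT and 447 ± 14.7 CPM in EL, the membrane-bound MMP inhibitor Reck fell by 1.17 (SE 0.07) on the log2 scale, and the plasma protease inhibitor A2m rose (44.9 ± 1.94 CPM in PT and 4.43 ± 1.61 CPM in EL).

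The ADAMTS-like genes, whose proteins share the ancillary domains of ADAMTSs without the protease, split into 3 higher and 4 lower of 7. Papln, papilin, was at 413 ± 2.75 CPM in PT and 36.0 ± 2.67 CPM in EL (log2 fold change 3.52, SE 0.05). Adamtsl4 (log2 fold change 2.50, SE 0.06) and Thsd4 (1.69, SE 0.04), which both bind fibrillin microfibrils, also rose, and Adamtsl5 fell (-3.81, SE 0.06). Of 28 tested proteins shed by ADAMs, 15 were higher and 11 lower (17 and 10 with library totals). Jag1, a Notch ligand, was at 9.39 ± 0.463 CPM in PT and 109.7 ± 2.46 CPM in EL. The syndecan Sdc4 (log2 fold change 1.95, SE 0.03) and the chemokine Cxcl16 (1.94, SE 0.03) rose, and Sdc1 fell (-1.95, SE 0.03). Matrix substrates were lower in 15 and higher in 4 of 20 (14 and 4 with library totals; median log2 fold change -5.45). Versican, Vcan, the substrate of the proteoglycan-cutting ADAMTSs, was at 26.5 ± 1.40 CPM in PT and 619.5 ± 15.2 CPM in EL, and Col4a2, Nid1 and Col1a1 had log2 fold changes of -5.66, -6.56 and -6.74. Those that rose, named after their values were seen, included Lama5 (log2 fold change 1.10), Comp (3.51) and Bcan (2.51).

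Other matrix proteases fell in 13 and rose in 2 of 16 (13 and 3 with library totals; median log2 fold change -2.80). Bmp1, the procollagen C-proteinase, was at 134 ± 3.36 CPM in PT and 1021 ± 52.6 CPM in EL, and its enhancer Pcolce at 7.35 ± 0.759 CPM in PT and 521 ± 34.5 CPM in EL. The serine protease gene Htra3 fell too (log2 fold change -5.79, SE 0.07). The 2 that rose were Mme, the membrane metalloendopeptidase CD10 (673 ± 31.3 CPM in PT and 76.9 ± 2.94 CPM in EL; log2 fold change 3.13, SE 0.04), and Prss23 (0.53, SE 0.04).

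**Figure D5:**
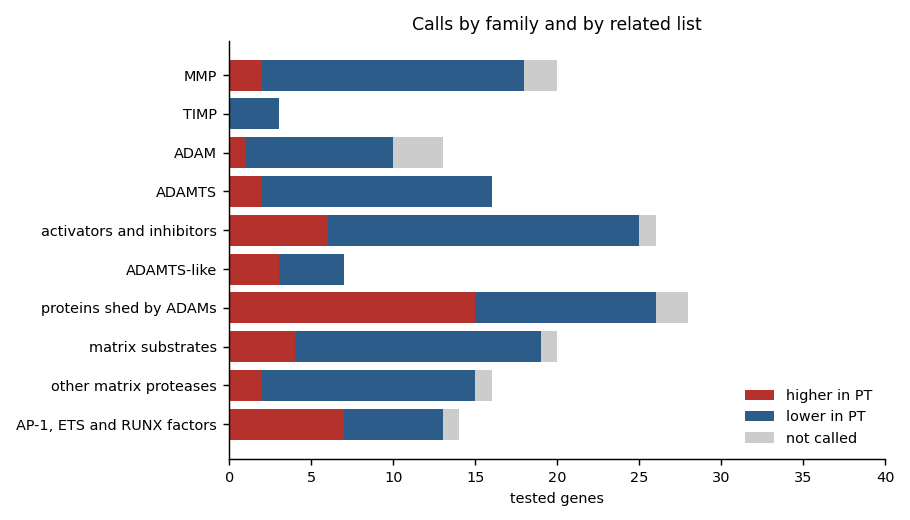
Number of tested genes called higher in PT, called lower in PT or not called, for each family and each related list. Falls prevail among MMPs (16 of 20), ADAMTSs (14 of 16) and matrix substrates (15 of 20), while the proteins shed by ADAMs (15 higher, 11 lower) and the transcription factors (7 higher, 6 lower) are divided. For all genes tested the shares are 40.8% lower and 39.9% higher.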

How the data were processed

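The authors deposited 1 table of whole-number read counts per RefSeq transcript, not normalised, for each library. Tools named in the submitters' processing notes are STAR, featureCounts and DESeq2, with hg19 listed beside mm10 as build; settings, strand included, are not given in the sources used. A complete file has 33068 rows; that of EL replicate 1 has 27664. Rows present in all 6 files were used, 1 transcript per symbol. Of 14 genes of interest with several transcripts and a mean count of at least 20, 10 had all transcripts within 5% of the highest. Exons of 13 of the 52 tested genes share bases with another gene.

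All 13844 genes kept by filterByExpr were fitted in R 4.3.3 with edgeR 4.0.16 (TMM, quasi-likelihood test, PT against EL, Benjamini-Hochberg adjustment, threshold 0.05). CPM use TMM-scaled totals and are given as mean ± SD with n = 3. The SE of a log2 fold change was derived from its F statistic. The fit was also run on simulated counts that gave every gene the same dispersion and changed few genes. That setting is simpler than these data and cannot show how the fit behaves on them. DESeq2 1.42.0, limma 3.58.1 (voom) and other scalings, filters, blocks and left-out libraries were alternatives. Replicates of a group differed by more than sampling noise (chi-square per degree of freedom of at least 2.89). Positions and promoters are from RefSeq (GRCm38.p6) and transcript lengths from GENCODE M21. Intervals cover counting error only, and 3 counts correspond to at most 0.0755 CPM.

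The genes and lists were chosen with earlier results of these data known. Values in every library are given for TIMPs and for the 3 most abundant genes per family. The same holds for up to 4 called genes per direction and family with largest change and mean count of at least 20. Some others, chosen after their values were seen, have them too. From each list up to 4 called genes with the smallest p are named. Some further list genes were named after their values were seen. One gene of the matrix substrate list is not reported here by name.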

Additional observations from a re-analysis of the deposited data

How the results depend on the processing

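Of the 52 tested genes, all kept their direction and their side of the threshold with RLE factors, with limma-voom and without PT replicate 1, and DESeq2 lost only Mmp25. A 2-fold minimum left 3 genes higher and 33 lower, with 6 ADAMs called in place of 10, 15 activators and inhibitors in place of 25, 15 proteins shed by ADAMs in place of 26, and 5 transcription factors in place of 13; here the fold minimum itself is the cause. Without 1 library at a time, 5 to 6 genes were higher and 41 to 42 lower. With library totals the sign turned for Adam11 (0.092) and Mmp24 (0.064). Leaving out 1 library at a time gave Mmp12 log2 fold changes of -0.054 (without EL replicate 1) to 0.18 (without EL replicate 3), and Mmp7 values of -0.043 (without PT replicate 2) to 0.30 (without PT replicate 1), with -0.020 without EL replicate 1; the cause was not tested. Adam4, not called with all libraries (log2 fold change -0.79, adjusted p = 0.0759 by edgeR), passed without EL replicate 2 (-1.02) and without PT replicate 3 (-1.21).

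Replicate numbers are shared between the groups, and the labels do not say whether they pair the libraries. Deviations of same-numbered libraries had correlations of 0.022, 0.0084 and -0.0022. The closest PT library was replicate 1 for EL replicate 1, and replicate 2 for EL replicates 2 and 3. Whether same-numbered libraries shared a batch was not tested. With a replicate block 6 genes were higher and 42 lower, Adam17 being added (adjusted p = 0.0497). The fit without EL replicate 1 holds the 5 libraries with complete files and gave 5 genes higher and 41 lower. A separate planned count of genes missing from EL replicate 1 was not made, since none of the 73 was missing. Genes with few counts (Mmp1b, Mmp25, Adam28, Adam4, Adamts20) are limited by depth.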
